A study of Homo sapiens with 12 samples.

Results

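The 10 genes described here code for transcription factors that set the growth and identity of myeloid cells and are often altered in myeloid leukaemia: MYC, MYB, RUNX1, SPI1, CEBPA, CEBPB, GFI1, IRF8, KLF4 and HOXA9. They were chosen by symbol, with no use of measured values, from the 27827 named genes that appear in either of the 2 deposited count tables. The antagonist table lists all 10 among its 27825 named genes, and all 10 passed the filter on low counts. The agonist table lists 904 genes, and only MYC and RUNX1 of the 10 are among them, so the other 8 were not analysed here for the agonist.

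RNA was sequenced from U937, a human pro-monocytic leukaemia cell line, in 12 libraries. LILRB3 is a surface receptor with inhibitory motifs, found on monocytes and related cells. By the labels, all cells, controls included, were first given interferon gamma at 50 ng/mL, which the submitters used to raise LILRB3. One group of 3 libraries then received an antibody named as a LILRB3 antagonist and was set against its own group of 3 libraries with nonspecific IgG (set 1), and another 3 received a LILRB3 agonist antibody and were set against 3 further IgG libraries (set 2). Treatment lasted 72 hours at an antibody concentration that the labels write as 5 mg/mL. The headers of the count columns name IFN in set 1 and do not name it in set 2. U937 is 1 cell line, so the groups model that line alone, and no source used here says that the 3 libraries of a group came from separate cultures. The p-values therefore measure only the spread between these libraries, which may be technical.

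These factors work as a network. PU.1 (the product of SPI1) and C/EBPα (of CEBPA) bind myeloid genes together and start the myeloid programme, RUNX1 acts upstream of both with its partner CBFβ, and IRF8 and KLF4 turn cells toward monocytes while C/EBP factors and GFI1 favour granulocytes. MYC drives ribosome production and growth, MYB keeps progenitors dividing by recruiting the acetyltransferases p300 and CBP, and HOXA9 sustains self-renewal in many leukaemias. U937 is known to carry a PICALM-MLLT10 fusion, of a kind that keeps HOXA genes switched on through the histone methyltransferase DOT1L.

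A stretch of DNA is shown for each of 3 members that the results turn on: RUNX1 and GFI1, which were higher with the antagonist, and CEBPA, which spread widely over the IgG libraries. The GC content set beside that spread further below is that of transcripts and not of these stretches. Each stretch is the 250 bases before a transcription start in RefSeq (GRCh38.p14), on the minus strand, written 5′ to 3′. Capitals mark matches, on either strand, to a short list of motifs: RUNX site TGTGGT, PU.1 site GAGGAA, ETS site CCGGAA, E-box CACGTG, C/EBP site TTGCGCAA, CCAAT box CCAAT, ISRE core (GAAA, NN, GAAA) and GAS site TTCNNNGAA. The list was chosen with these windows in view.
RUNX1, chr21:34888700-34888949: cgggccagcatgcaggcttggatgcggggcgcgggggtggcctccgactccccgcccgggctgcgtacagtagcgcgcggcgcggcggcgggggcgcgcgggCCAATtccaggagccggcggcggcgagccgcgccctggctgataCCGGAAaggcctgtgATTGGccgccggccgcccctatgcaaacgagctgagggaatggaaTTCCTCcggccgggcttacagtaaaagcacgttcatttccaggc
GFI1, chr1:92486100-92486349: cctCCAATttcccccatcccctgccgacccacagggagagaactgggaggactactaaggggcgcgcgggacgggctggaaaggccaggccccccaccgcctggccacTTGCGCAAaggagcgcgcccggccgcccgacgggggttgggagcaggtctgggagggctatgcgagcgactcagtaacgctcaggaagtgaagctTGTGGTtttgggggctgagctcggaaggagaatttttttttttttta
CEBPA, chr19:33302535-33302784: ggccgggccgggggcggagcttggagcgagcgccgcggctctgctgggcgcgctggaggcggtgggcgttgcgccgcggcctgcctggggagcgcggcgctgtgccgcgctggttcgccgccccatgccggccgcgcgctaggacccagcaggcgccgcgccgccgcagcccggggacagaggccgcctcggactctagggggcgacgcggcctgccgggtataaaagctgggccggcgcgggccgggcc

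The RUNX1 window holds a PU.1 match from base -44 to -39, an ETS match from -104 to -99 and CCAAT boxes from -148 to -144 and from -89 to -85, counted from the base before the start as -1. In the GFI1 window, 1 of 3 that the table gives for this gene, the C/EBP match TTGCGCAA lies from -142 to -135 and a RUNX match from -47 to -42. The other GFI1 windows hold neither of these matches, so the window shown is the only one that has them. The C/EBP letters occur in 46 of 35114 such windows (0.131%), the RUNX letters in 11%, the PU.1 letters in 23.6%, the ETS letters in 14.5% and CCAAT in 32% of them. The CEBPA window holds none of the 8 motifs. It is 81.2% G and C, which is more than in 97.7% of all windows, against 71.2% for RUNX1 and 62.4% for this GFI1 window. The table had a window for 8 of the 10 genes, 12 windows in all.

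The set 1 libraries held 17035334 to 18820312 counts of named genes. The set 2 columns held 2764479 to 3522203 counts over the 904 listed genes, and since those genes appear to be a picked part of a larger table these totals are not taken as depths. Values are given below as CPM, counts relative to the TMM-scaled total of the library, which in set 2 is a total of listed counts and cannot be compared in level with set 1. In set 1, IgG library 1 was the least like its fellow controls: the chi-square per degree of freedom over genes was 11 and 19.9 for its pairs, against 4.54 for the other pair. Agonist library 1 likewise stood apart in set 2, at 25.1 and 26.7 against 3.75. All 12 markers of a monocytic line were detected in set 1, with a summed level of 5460 to 5590 CPM in antagonist libraries and 5910 to 6130 CPM in IgG libraries. In the same libraries the counts of CD14, the lipopolysaccharide co-receptor of mature monocytes, were 5, 5 and 3 with the antagonist and 7, 6 and 9 with IgG. In set 2 they were 630, 588 and 610 with the agonist and 344, 285 and 263 with IgG. The cause of this gap between the sets was not tested. In set 1, for T and NK cells 5 of 7 markers were detected (299 to 314 against 289 to 298 CPM, with CD3G and KLRD1 at 0), for B cells 4 of 5 (32.5 to 36.9 against 29.9 to 31.9 CPM, MS4A1 at 0), for erythroid cells 4 of 6 (3.82 to 3.99 against 4.33 to 4.73 CPM, HBB among those at 0), and for epithelial cells or fibroblasts 4 of 5 (0.912 to 2.59 against 1.12 to 2.1 CPM, EPCAM at 0). Of these lists 1, 4, 2 and 1 markers, in that order, passed the filter on low counts. Nearly all of the T and NK sum thus rests on 1 gene. The part of these marker levels in the results below was not tested. Fewer cells of a type and less RNA per cell cannot be told apart in such bulk samples.

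With levels divided by the length of the longest transcript, CEBPA was the most abundant of the 10 by far, at 611 ± 69.3 CPM per kb in antagonist libraries and 643 ± 175 in IgG libraries (SD, n = 3 each). SPI1 followed at 192 ± 8.30 and 182 ± 28.4 CPM per kb in antagonist and IgG libraries, MYC at 148 ± 4.34 and 153 ± 15.5, GFI1 at 159 ± 5.04 and 139 ± 12.1, and MYB at 107 ± 5.63 and 113 ± 4.89. IRF8, CEBPB and HOXA9 formed a middle tier, with antagonist means of 62.5, 57.0 and 47.2 CPM per kb and IgG means of 70.0, 52.5 and 42.6 CPM per kb. RUNX1 at 9.37 ± 0.194 and 7.91 ± 0.702 CPM per kb and KLF4 at 3.95 ± 0.397 and 4.29 ± 0.688 CPM per kb were the lowest. Among neighbours in the IgG order, the ranges of SPI1 and MYC, of MYC and GFI1, of IRF8 and CEBPB, and of CEBPB and HOXA9 overlapped. Divided by the merged length of all exons instead, the order of 3 neighbours turned to GFI1 (130), SPI1 (123) and MYC (121 CPM per kb in IgG), CEBPB (52.5) passed IRF8 (50.6), CEBPA stayed first and KLF4 last.

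**Figure D1:**
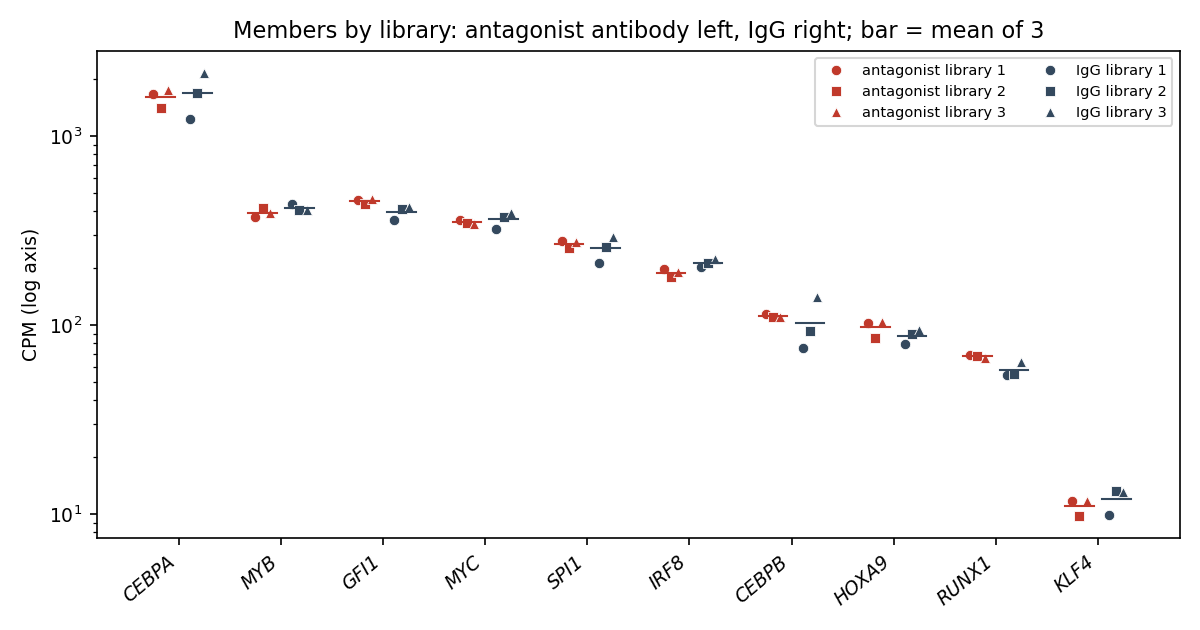
Each of the 10 genes in the 3 antagonist libraries (red, left) and the 3 IgG libraries of set 1 (dark blue, right), in CPM on a log axis, with circles, squares and triangles for libraries 1 to 3 and a bar at the mean. The genes run from CEBPA, above 1200 CPM in every library, to KLF4 at 9.82 to 13.2 CPM, and the 3 IgG points of CEBPA and CEBPB lie much further apart than their antagonist points.

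With the antagonist, RUNX1 and GFI1 passed the test, both upward and both by less than 1.2-fold, and none of the 10 passed downward (0 by DESeq2 as well, and 1, IRF8, at an unadjusted p under 0.05). That is 2 of 10 (20%) past an adjusted p of 0.05, against 36.1% of the 13778 tested genes (15.6% higher and 20.5% lower), by edgeR's quasi-likelihood test with Benjamini-Hochberg adjustment. The median log2 fold change of the 10 was 0.01, against -0.01 over all tested genes. For 3 of the 10 (RUNX1, GFI1 and IRF8) the range of the antagonist libraries lay apart from that of the IgG libraries, against 49.0% of all tested genes. Both calls, and with them the count of 2, fell to 0 when any 1 antagonist library was left out. Counts over all tested genes moved in the leave-outs as well. They ran from 1374 to 2474 higher, against 2147 with all libraries, and from 1769 to 2601 lower, against 2831. Both were lowest without antagonist library 1.

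RUNX1, the DNA-binding subunit of core binding factor, had 69.3, 68.7 and 66.6 CPM in the antagonist libraries, against 54.1, 55.2 and 63.4 CPM in the IgG libraries. All 3 antagonist libraries were above all 3 IgG libraries, of which library 3 came closest. Its log2 fold change was 0.25 ± 0.07 (SE), 1.19-fold, with an adjusted p of 0.0180 by edgeR's quasi-likelihood test with Benjamini-Hochberg adjustment. With trends in transcript length and GC content removed the log2 fold change was 0.12 and the adjusted p 0.107. The adjusted p also exceeded 0.05 without IgG library 2 (0.0543) and without antagonist library 1 (0.0808), 2 (0.0546) or 3 (0.0513), with log2 fold changes of 0.23 to 0.26, and it ranged from 0.00298 to 0.107 over all 12 alternatives. The gene spans chr21:34787801-36004667 on the minus strand (GRCh38, GENCODE 29), and none of its exon bases is shared with another gene.

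GFI1 encodes a zinc finger repressor of granulocyte precursors that recruits the histone demethylase LSD1. It had 457, 437 and 465 CPM in the antagonist libraries, against 358, 413 and 422 CPM in the IgG libraries. The groups did not overlap, and IgG library 1 was the lowest of the 6. The log2 fold change was 0.19 ± 0.07, 1.14-fold, with an adjusted p of 0.0498 by the same edgeR test. The adjusted p was 0.0561 without the robust step and 0.158, 0.0748 and 0.182 without antagonist library 1, 2 or 3, and it ranged from 0.0067 to 0.182 over the 12 alternatives. With the length and GC trends removed the log2 fold change was 0.11. GFI1 lies at chr1:92474762-92486876 on the minus strand.

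IRF8, the interferon-inducible factor that commits precursors to monocytes and dendritic cells, stood just outside the threshold in the other direction. Its levels were 197, 180 and 191 CPM in the antagonist libraries, against 202, 212 and 223 CPM in the IgG libraries. Every antagonist library was below every IgG library, by a small margin. The log2 fold change was -0.16 ± 0.06, with an adjusted p of 0.0541 by edgeR's quasi-likelihood test. Its adjusted p was under 0.05 without a filter on low counts (0.0443), with the length and GC trends removed (0.00028) and without IgG library 1 (0.013), and its adjusted p reached 0.3 with library totals in place of TMM.

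The pioneer factors of the myeloid programme did not pass. SPI1 had 277, 256 and 275 CPM with the antagonist and 214, 260 and 293 CPM with IgG, so that the IgG libraries enclosed the antagonist ones. CEBPA had 1667, 1402 and 1752 CPM with the antagonist and 1232, 1691 and 2154 CPM with IgG, and CEBPB, the stress- and cytokine-induced relative of CEBPA, had 115, 110 and 110 CPM with the antagonist and 75.3, 92.5 and 140 CPM with IgG. In both C/EBP genes IgG library 1 was the lowest and IgG library 3 the highest of all 6. The log2 fold changes were 0.08 ± 0.10 for SPI1 (95% interval -0.14 to 0.29), -0.07 ± 0.22 for CEBPA (-0.63 to 0.48) and 0.12 ± 0.23 for CEBPB (-0.47 to 0.71), with adjusted p of 0.571, 0.824 and 0.726 by the edgeR test. The intervals of the 2 C/EBP genes leave room for changes larger than those of RUNX1 and GFI1 in either direction. Without IgG library 3 the log2 fold change of CEBPB was 0.42 with an adjusted p of 0.00143, and without IgG library 1 it was -0.03 (0.926). Its size and sign thus depend on which IgG library is left out. For CEBPA the sign turned to 0.15 without IgG library 3 and to 0.01 without antagonist library 2 or with library totals, and for SPI1 it turned to -0.01 without IgG library 1. Without IgG library 1 CEBPA was at -0.23. With the length and GC trends removed the log2 fold changes were -0.22 ± 0.12 for CEBPA, 0.03 ± 0.17 for CEBPB and 0.02 ± 0.04 for SPI1. The adjusted p there were 0.22, 0.909 and 0.771 by the edgeR test.

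CEBPA and CEBPB varied more over the IgG libraries than over the antagonist libraries, where CEBPA still had the largest spread of the 10 (log2 SD 0.17). Their coefficients of variation were 11.3% and 2.43% over the antagonist libraries, against 27.2% and 32.7% over the IgG libraries, where the highest library exceeded the lowest 1.75-fold and 1.86-fold. On the log2 scale the SD over IgG libraries was 0.40 for CEBPA and 0.46 for CEBPB, larger than in 98.8% and 99.2% of the genes with at least 50 CPM. These 2 genes and SPI1 have the transcripts richest in G and C of the 10, at 65.9%, 66.2% and 65.1%. IgG library 3 exceeded IgG library 1 by 0.81 for CEBPA, 0.89 for CEBPB and 0.45 for SPI1 (log2), against a median of 0.44 over the 159 genes of 65 to 67% GC with at least 50 CPM. Across the 4500 genes of at least 50 CPM, which share the same 2 libraries and are not independent, that difference had a Spearman correlation of 0.74 with GC content. Its part in the C/EBP values was not tested.

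MYC and MYB, the members tied to proliferation, did not pass in this comparison either. MYC had 361, 346 and 341 CPM in the antagonist libraries, against 322, 373 and 393 CPM in the IgG libraries, with the antagonist values inside the IgG range. Its log2 fold change was -0.05 ± 0.07 (95% interval -0.21 to 0.10) and its adjusted p 0.591. The sign turned to 0.03 with library totals and to 0.01 without IgG library 3. MYB had 373, 414 and 390 CPM with the antagonist and 436, 404 and 406 CPM with IgG, where antagonist library 2 overlapped the IgG range. Its log2 fold change was -0.08 ± 0.06 (-0.22 to 0.05), with an adjusted p of 0.31 by edgeR's quasi-likelihood test.

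KLF4, which promotes monocyte differentiation, was the most weakly expressed, with 11.7, 9.82 and 11.8 CPM in the antagonist libraries and 9.84, 13.2 and 13.2 CPM in the IgG libraries. The groups overlapped, and the log2 fold change was -0.12 ± 0.13 (-0.41 to 0.17), with an adjusted p of 0.527 by the edgeR test. HOXA9 had 103, 85.5 and 103 CPM with the antagonist and 79.9, 89.6 and 94.1 CPM with IgG. Antagonist libraries 1 and 3 were above every IgG library and library 2 was not. Its log2 fold change was 0.15 ± 0.08 (-0.04 to 0.33), with an adjusted p of 0.192 by the edgeR test, and 0.23 with an adjusted p of 0.0419 when library totals replaced TMM.

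Counts of some members can hold reads of other genes that share their exon bases. For genes on the opposite strand this is because the use of strand is not given in the sources used here. In GENCODE 29, 43.4% of the CEBPA exon bases (chr19:33299934-33302564) are shared with genes on the opposite strand, as are 11.8% of those of CEBPB with CEBPB-AS1 (chr20:50190734-50192689) and 2.22% of those of MYB with MYB-AS1. HOXA9 (chr7:27162435-27175180) shares 19.3% of its exon bases with HOXA10, HOXA10-AS and AC004080.3. Of these HOXA10 and AC004080.3 lie on its own strand, where a strand setting would not separate the reads. MYC, RUNX1, SPI1, GFI1, IRF8 and KLF4 share none.

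**Figure D2:**
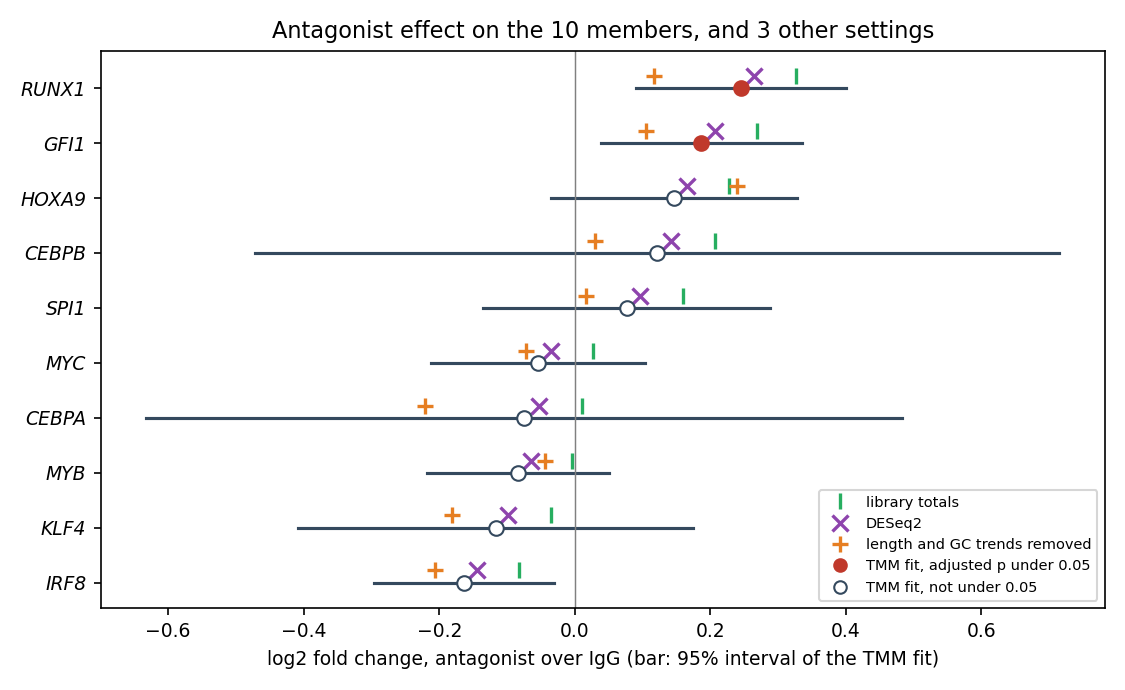
Log2 fold change of the antagonist over IgG for the 10 genes, with the 95% interval as a dark blue bar. Points are red where past an adjusted p of 0.05 and open otherwise. Small marks show 3 other settings: library totals, DESeq2, and length and GC trends removed. RUNX1 and GFI1 lie to the right at 0.25 and 0.19, IRF8 lies lowest at -0.16, and the bars of CEBPA and CEBPB are the widest.

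The agonist was accompanied by lower MYC and RUNX1, the only members its table lists. MYC had 321, 299 and 324 CPM of listed counts in the agonist libraries, against 447, 498 and 467 CPM in their IgG libraries. RUNX1 had 340, 386 and 398 CPM in the agonist libraries, against 518, 535 and 505 CPM in the IgG libraries. In both genes every agonist library was below every IgG library, and agonist library 1, which stands apart in set 2, was the lowest for RUNX1 but not for MYC. The counts behind these values were 1099, 946 and 1098 for MYC and 1162, 1220 and 1348 for RUNX1 with the agonist, against 1481, 1391 and 1486 for MYC and 1716, 1495 and 1607 for RUNX1 with IgG.

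MYC fell by 0.58 ± 0.07 on the log2 scale, to 0.670 times its IgG level, with an adjusted p of 0.000169 by edgeR's quasi-likelihood test with Benjamini-Hochberg adjustment. RUNX1 fell by 0.47 ± 0.08, to 0.721 times its IgG level, with an adjusted p of 0.000272. Both kept direction and call in all 12 alternatives, with log2 fold changes from -0.69 to -0.54 for MYC and from -0.57 to -0.23 for RUNX1. The value of -0.23 for RUNX1 came with the length and GC trends removed, and without agonist library 1 the values were -0.59 for MYC and -0.41 for RUNX1. Of the 904 listed genes 99.9% passed the same test (55.6% higher and 44.2% lower), and the groups did not overlap in 97.6% of them, so passing it says nothing particular to these 2 genes. The listed genes appear to have been picked on these same libraries, hence the p-values are not independent evidence, and the zero point of the scaling is uncertain. MYC moved more, in absolute size, than 82.6% of the listed genes and RUNX1 more than 73% of them.

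For RUNX1 the log2 fold changes were 0.25 with the antagonist and -0.47 with the agonist, each against its own IgG, and the difference was 0.72 ± 0.11 with an adjusted p of 6.67e-05 by edgeR's quasi-likelihood test of the interaction. The test could be run only on genes listed for the agonist, which appear to have been picked on these same libraries, so its p-values carry that choice and are not independent evidence of a difference. For MYC they were -0.05 and -0.58, with a difference of 0.52 ± 0.10 and an adjusted p of 0.00052. Among the 867 genes tested in both sets, 58.8% passed this test, 27.9% with the higher value for the antagonist and 30.9% with the lower. Both differences kept their sign and call in all 15 alternatives, from 0.35 to 0.83 for RUNX1 and from 0.47 to 0.64 for MYC. The lowest RUNX1 value, 0.35 with an adjusted p of 0.00202, came with the length and GC trends removed. Set and table differ along with the antibody, so that a difference between the sets in anything else cannot be told apart from it.

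**Figure D3:**
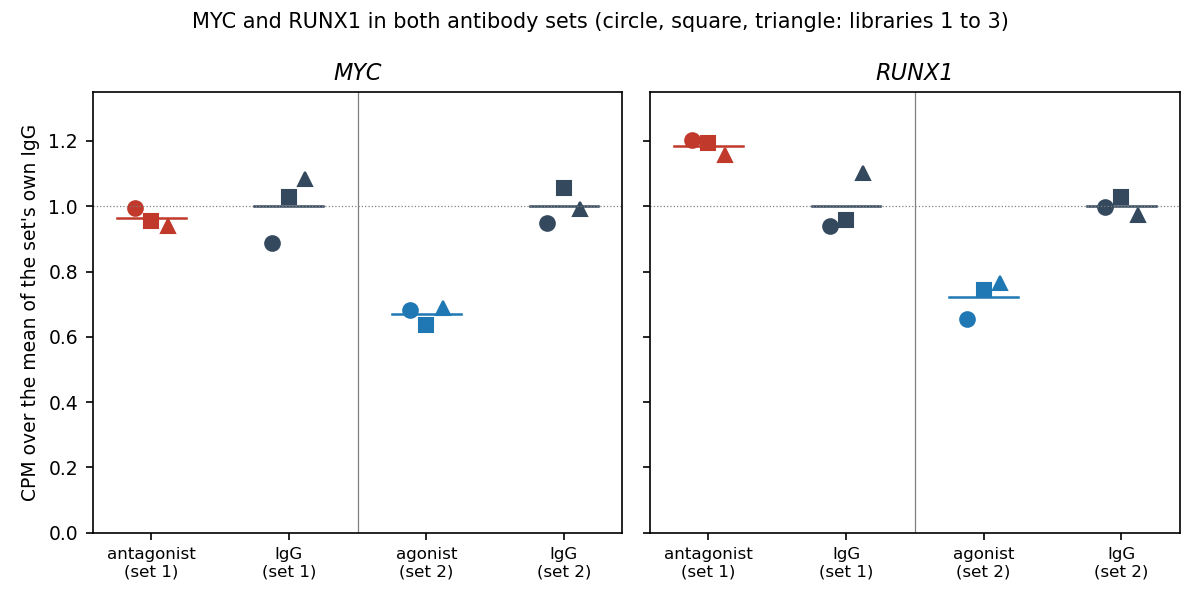
MYC (left) and RUNX1 (right) in every library as CPM over the mean of the set's own IgG group, with the antagonist and its IgG in set 1 and the agonist and its IgG in set 2; bars are means of 3 libraries. In set 2 all agonist points lie below all IgG points for both genes, and in set 1 the antagonist points lie above the IgG points for RUNX1 and among them for MYC.

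The genes around each member were taken as lists, described here by the number past an adjusted p of 0.05 over all tested genes in set 1 (edgeR's quasi-likelihood test, with n = 3 libraries a group and single genes given as log2 fold changes), beside the background of 15.6% higher and 20.5% lower. These shares are those of the main fit and move with the setting. With library totals more of all tested genes were higher and fewer lower, as given in the closing sections. Over the leave-outs the counts over all tested genes ran from 1374 to 2474 higher and from 1769 to 2601 lower. In the MYC network, a list of relatives and partners of MYC, MAX and MLX and of genes for MYC turnover, 4 of 15 tested genes were higher and 1 lower. MNT, a repressor that competes with MYC for MAX, averaged 73.4 ± 3.66 CPM in antagonist libraries and 50.2 ± 7.79 CPM in IgG libraries (SD, n = 3 each), a log2 fold change of 0.55 ± 0.10. MLXIP rose by 0.45, MGA by 0.36 and MAX by 0.30. MNT and MGA kept their call in all 12 alternatives, at 0.31 and 0.19 with the length and GC trends removed. MLXIP lost it there (0.16, adjusted p 0.104), and MAX lost it there and without IgG library 2 or antagonist library 1 or 2 (adjusted p up to 0.0704). The count of 4 higher was 2 with the trends removed and 6 with library totals or without IgG library 1, and the count of 1 lower was 0 with library totals and without antagonist library 1 or 3.

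Genes that MYC is known to activate moved mostly down with the antagonist, with 12 of 23 tested lower and 4 higher; their median log2 fold change was -0.21, against -0.01 over all tested genes. NPM1 and FBL, nucleolar proteins of ribosome production, were lower by log2 fold changes of -0.47 ± 0.07 and -0.43 ± 0.05. FBL averaged 287 ± 5.48 CPM in antagonist libraries and 387 ± 6.21 CPM in IgG libraries (SD, n = 3 each). TERT, the telomerase catalytic subunit, was higher by 0.63 ± 0.14 and CCND2, cyclin D2, by 0.40 ± 0.07. These 4 kept their calls in all 12 alternatives, with NPM1 at -0.28 and TERT at 0.37 when the trends were removed. The count of 12 lower was 7 with library totals, where fewer of all tested genes were lower too. It was 9 without IgG library 1 or antagonist library 3, and the count of 4 higher was 2 without antagonist library 1 or 3. EIF4A1, a translation factor that every cell uses, was listed at 0 in all 6 libraries, so a 0 in this table need not mean that a gene is silent.

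For the agonist, 3 of the 24 MYC target genes are listed, and all 3 were lower, against 44.2% of all listed genes. NOLC1 was at -0.36 ± 0.06, CCND2 at -0.34 ± 0.08 and NPM1 at -0.28 ± 0.05 (log2 fold changes). CCND2 was thus higher with the antagonist and lower with the agonist, each against its own IgG, and its agonist call was lost with the length and GC trends removed (-0.09). AURKA, a mitotic kinase that also stabilises MYC-family proteins, was lower with the agonist at -0.38 ± 0.07.

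RUNX1's relatives and partners moved upward more often than down with the antagonist, with 4 of 10 tested higher and 2 lower. The median of their log2 fold changes was 0.29. RUNX2 averaged 127 ± 1.82 CPM in antagonist libraries and 96.2 ± 1.11 CPM in IgG libraries, a log2 fold change of 0.40 ± 0.05. HIPK2, a kinase that phosphorylates RUNX1, rose by 0.43, and the corepressors CBFA2T3 and CBFA2T2 by 0.45 and 0.32. Of these 4, CBFA2T3 lost its call without antagonist library 1 or 3 (adjusted p up to 0.0594) and the others kept theirs in all 12 alternatives. With the length and GC trends removed HIPK2 was at 0.14, CBFA2T2 at 0.13 and CBFA2T3 at 0.24. One of the 2 lower genes was CBFB, the obligate partner of RUNX1, at 73.1 ± 1.92 CPM with the antagonist and 86.7 ± 7.70 CPM with IgG (log2 fold change -0.25 ± 0.07); it falls outside the rule for named genes and was picked after its value was seen. The count of 2 lower was 0 with library totals and without antagonist library 1 or 3, and 1 without any 1 of the IgG libraries. With the agonist, RUNX2 was higher by 0.27 ± 0.10, in the opposite direction to RUNX1, and it lost that call by DESeq2 and without IgG library 2 or agonist library 2 (adjusted p up to 0.119), while with the trends removed it was at 0.52.

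MYB's co-activators EP300 and CREBBP, the acetyltransferases p300 and CBP, were higher with the antagonist by log2 fold changes of 0.47 ± 0.06 and 0.40 ± 0.09. MYBL1, a MYB relative, was higher by 0.57 ± 0.14 at the low level of 7.61 ± 0.836 CPM in antagonist libraries and 5.12 ± 0.065 CPM in IgG libraries. TAF12, a TFIID subunit used by MYB, was lower at -0.29 and lost its call with library totals, with the trends removed (-0.14) and without IgG library 2 or antagonist library 1 or 3 (adjusted p up to 0.116). In all, 3 of 9 tested genes of this list were higher and 2 lower. The 3 higher genes passed in every leave-out, CREBBP lost its call with the trends removed (0.08) where EP300 was at 0.23, and the count of 2 lower was 0 with library totals and without IgG library 2 or antagonist library 1 or 3, and 1 without IgG library 3 or antagonist library 2.

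Among GFI1's corepressors, listed with its paralogue GFI1B, 3 of 8 tested genes were lower and 1 higher. HDAC2, a histone deacetylase, averaged 130 ± 6.34 CPM in antagonist libraries and 170 ± 12.7 CPM in IgG libraries, a log2 fold change of -0.39 ± 0.07 that kept its call in all 12 alternatives. KDM1A, the demethylase LSD1 through which GFI1 represses, was lower at -0.22, HDAC3 lower at -0.21 and RCOR1, the scaffold CoREST1, higher by 0.17. KDM1A lost its call with library totals (-0.14) and without IgG library 2 or antagonist library 2 or 3 (adjusted p up to 0.114). HDAC3 lost it with library totals (-0.13), by DESeq2 and without IgG library 2 or 3 or antagonist library 1 or 3 (up to 0.152). RCOR1 lost it without a filter, with the trends removed (0.11) and without IgG library 2 or any 1 antagonist library (up to 0.119). The count of 3 lower was 1 without IgG library 2 or antagonist library 3 and the count of 1 higher was 0 without any 1 antagonist library and 2 without IgG library 3, by DESeq2 or with library totals. With the agonist KDM1A was lower too, at -0.32 ± 0.05.

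The C/EBP list had no higher gene (0 by DESeq2 and 0 at an unadjusted p under 0.05 too): 5 of 11 tested were lower, and the median of the list was -0.19 (log2 fold change). CEBPZ was lower at -0.31 ± 0.07, CEBPE, the late granulocyte factor, at -0.26 ± 0.08 and COP1, a ubiquitin ligase that acts on C/EBPα, at -0.21 ± 0.07. CEBPZ kept its call in all 12 alternatives, at -0.19 with the trends removed. CEBPE and COP1 lost theirs with library totals (COP1 at -0.13) and by DESeq2, CEBPE also in every leave-out except that of IgG library 1 (adjusted p up to 0.154) and COP1 in every leave-out (up to 0.187 over the alternatives), and the count of 5 was 2 with library totals, by DESeq2 and in every leave-out except that of IgG library 1.

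In the ETS family, to which PU.1 belongs, 2 of 13 tested genes were higher and 3 lower. ELK4 was higher by 0.51 ± 0.10 and ELF1 lower at -0.30 ± 0.07, both in all 12 alternatives, with ELF1 at -0.16 when the trends were removed. ETS1 and ETS2 were lower at -0.21 and -0.19, and both lost their calls by DESeq2 and with library totals (-0.13 and -0.11, adjusted p 0.21 and 0.158). ETS1 also lost it with the stricter filter and in every leave-out except that of IgG library 2, and ETS2 without IgG library 2 or 3 or antagonist library 1 or 3. The count of 3 lower was 1 with library totals, by DESeq2 and without IgG library 3 or antagonist library 1 or 3. The count of 2 higher was 1 without IgG library 2 or antagonist library 1 or 3. ETS1 was also lower with the agonist, at -0.37 ± 0.08, and lost that call with the trends removed.

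Of 22 tested myeloid genes that PU.1 or C/EBP factors are known to bind, 3 were lower and 1 higher with the antagonist, a share of 18.2% past the threshold against 36.1% of all genes. LYZ, lysozyme, averaged 149 ± 12.5 CPM in antagonist libraries and 204 ± 19.9 CPM in IgG libraries (log2 fold change -0.46 ± 0.08), and CTSG, the granule protease cathepsin G, was lower at -0.35 ± 0.05. Both kept their calls in all 12 alternatives, with LYZ at -0.22 when the trends were removed. MS4A3, a granulocyte-monocyte progenitor gene, was lower at -0.33 ± 0.10 and CSF3R, the G-CSF receptor, higher by 0.22 ± 0.08. MS4A3 lost its call with library totals (adjusted p 0.0737), with the trends removed (-0.09, 0.391) and without IgG library 1 or antagonist library 1 or 3 (up to 0.102). CSF3R lost its call without the robust step (0.0577), with the trends removed (0.05, 0.275) and without any 1 antagonist library (up to 0.181). The count of 3 lower was 2 without antagonist library 1 or 3, 5 without a filter and 6 with the trends removed, and the count of 1 higher was 0 without any 1 antagonist library and 2 without IgG library 1.

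With the agonist, 7 of the 8 listed genes of that kind were higher and 1 was lower, against 55.6% and 44.2% of all listed genes. The count of 7 was 4 with the length and GC trends removed, and 6 by DESeq2 or without agonist library 3. CD14 averaged 183 ± 3.03 CPM of listed counts in agonist libraries and 96.2 ± 11.7 CPM in IgG libraries, a log2 fold change of 0.93 ± 0.11. CSF1R, the M-CSF receptor and a PU.1 and RUNX1 target, was higher by 0.67 ± 0.22 and S100A8 by 0.55 ± 0.12, while MS4A3 was lower at -0.70 ± 0.16. CSF1R lost its call without agonist library 3 (0.39, adjusted p 0.0722), and S100A8 with the trends removed (0.23, adjusted p 0.0537). CD14 and MS4A3 kept theirs in all 12 alternatives.

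Of the markers of a monocytic line, which share CTSG, LYZ, CD14, CSF1R, CD33, CD68, AZU1 and MPO with the preceding list, 5 of 11 tested were lower and 0 higher with the antagonist (0 higher by DESeq2 and at an unadjusted p under 0.05). TYROBP, a signalling adaptor of myeloid receptors, averaged 38.7 ± 2.19 CPM in antagonist libraries and 50.5 ± 3.79 CPM in IgG libraries, a log2 fold change of -0.38 ± 0.08. FCER1G, another such adaptor, was lower at -0.28 ± 0.07 and lost its call with library totals (adjusted p 0.0505) and with the trends removed (-0.15, 0.0568). The count of 5 lower was 3 with library totals. With the agonist, all 6 listed markers were higher, against 55.6% of all listed genes, TYROBP by 0.54 ± 0.09 and CD68 by 0.33 ± 0.06. That count was 3 with the trends removed, where TYROBP lost its call (0.14, adjusted p 0.0513) and CD68 was at 0.17, and 5 by DESeq2 and without IgG library 1 or 3 or agonist library 3.

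Among interferon regulatory factors and their partners, 2 of 13 tested genes were higher and 2 lower with the antagonist. STAT2, which carries interferon signals with IRF9, was higher by 0.30 ± 0.06 and BATF, which binds DNA with IRF8 and IRF4, lower at -0.29 ± 0.07, both in all 12 alternatives. IRF5 was higher by 0.21, a call lost without IgG library 2 or any 1 antagonist library (adjusted p up to 0.152), and was at 0.10 with the trends removed. The count of 2 higher was 1 without any 1 antagonist library, and the count of 2 lower was 1 without any 1 library other than antagonist library 2. Over all 904 genes listed for the agonist the median log2 fold change was 0.19, and 55.6% passed upward. The 4 of them that belong to this list were all higher: IRF3 by 0.26 ± 0.08, STAT2 by 0.21 ± 0.06, IRF1 by 0.19 ± 0.06 and IRF9 by 0.19 ± 0.07. All 4 lost their calls by DESeq2, IRF3 turned to -0.02 and IRF9 to 0.02 with the length and GC trends removed, IRF9 lost its call without IgG library 1 and IRF1 without IgG library 3.

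KLF4's relatives gave 2 higher and 0 lower of 11 tested with the antagonist (0 lower by DESeq2, 1 at an unadjusted p under 0.05), with 2 lower when the length and GC trends were removed. KLF7 rose by 0.35 ± 0.10 and KLF13 by 0.27 ± 0.06. KLF7 lost its call without antagonist library 1 (adjusted p 0.107), and KLF13 fell to 0.01 with the trends removed. With the agonist KLF3 was lower at -0.41 ± 0.08, a call lost with the trends removed (-0.17).

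HOXA9 sits in a cluster whose posterior end was far more abundant than its anterior end. Per kb of longest transcript, HOXA10 averaged 88.2 CPM in antagonist libraries and 88.7 CPM in IgG libraries, HOXA11 70.2 and 66.5, HOXA13 55.9 and 54.2, and HOXA9 47.2 and 42.6, whereas HOXA2 to HOXA7 lay between 0.508 and 7.47 CPM per kb in antagonist libraries and between 0.576 and 5.36 in IgG libraries. The genes that passed lay at the low end: HOXA6 was higher by 0.81 ± 0.28, HOXA3 by 0.49 ± 0.12 and HOXA4 by 0.48 ± 0.13. HOXA4 had 7.98, 6.38 and 8.04 CPM per kb in antagonist libraries, against 4.74, 5.19 and 6.13 CPM per kb in IgG libraries, with no overlap. Of the 15 tested genes of the cluster and its cofactors 3 were higher and 0 lower (0 by DESeq2, 1 at an unadjusted p under 0.05), which became 0 higher without antagonist library 1, 2 without antagonist library 2, 1 without antagonist library 3 and 5 with library totals. HOXA3 lost its call without antagonist library 1, HOXA4 without antagonist library 1 or 3, and HOXA6 without IgG library 1 or any 1 antagonist library, with adjusted p up to 0.0506, 0.0703 and 0.146, and HOXA6 was at 0.49 without IgG library 1. MEIS1, the cofactor of HOXA9, did not pass, at 0.15 ± 0.06 with an adjusted p of 0.064 by the edgeR test.

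**Figure D4:**
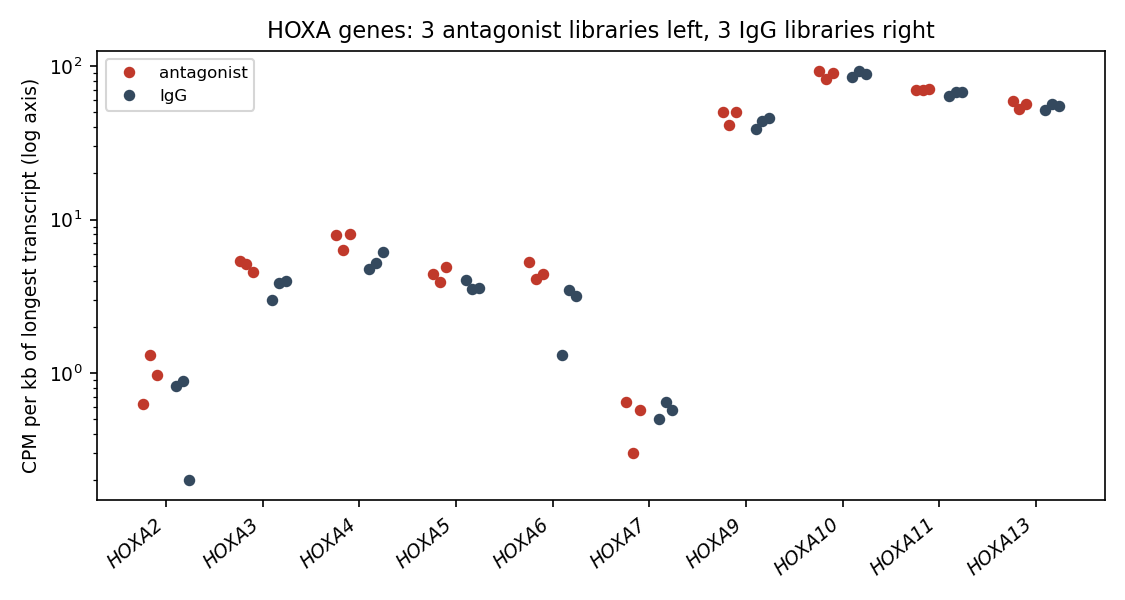
Levels of HOXA genes in the 3 antagonist libraries (red, left) and the 3 IgG libraries (dark blue, right), as CPM per kb of longest transcript on a log axis. HOXA9, HOXA10, HOXA11 and HOXA13 lie at about 39 to 92 CPM per kb in every library, more than 4-fold above any of HOXA2 to HOXA7.

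Of 7 tested transcripts that overlap or neighbour the members, 3 were higher and 0 lower (0 lower by DESeq2 and at an unadjusted p under 0.05). The 3 higher ones are antisense transcripts of the HOXA cluster, at low levels. HOXA10-AS averaged 5.43 ± 0.666 CPM in antagonist libraries and 3.40 ± 0.453 CPM in IgG libraries, a log2 fold change of 0.68 ± 0.17 that kept its call in all 12 alternatives. HOXA-AS2 averaged 1.28 ± 0.236 CPM in antagonist libraries and 0.519 ± 0.143 CPM in IgG libraries (1.29 ± 0.34), and HOXA-AS3 averaged 1.08 ± 0.300 and 0.517 ± 0.117 CPM in them (1.04 ± 0.36). HOXA-AS2 lost its call without antagonist library 3 (adjusted p 0.0601). HOXA-AS3 lost it without a filter, with the trends removed and without IgG library 2 or 3 or antagonist library 1 or 3 (up to 0.167). DESeq2 gave neither an adjusted p. The count of 3 was 1 without antagonist library 3, and 2 without a filter, with the stricter filter, with the trends removed and without IgG library 2 or 3 or antagonist library 1. Without strand, their reads and those of the HOXA genes opposite them cannot be told apart.

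Among fusion genes and chromatin regulators of HOXA, 3 of 9 tested were higher and 3 lower. DOT1L averaged 470 ± 31.2 CPM in antagonist libraries and 318 ± 49.5 CPM in IgG libraries, a log2 fold change of 0.56 ± 0.10, and KMT2A, the H3K4 methyltransferase MLL1, was higher by 0.39 ± 0.06. EZH2, the Polycomb methyltransferase that opposes HOX expression, was higher by 0.29 ± 0.08, and PSIP1, which tethers MLL1 to chromatin, was lower at -0.30 ± 0.06. KMT2A lost its call with the trends removed (0.11), and the other 3 kept theirs in all 12 alternatives, with DOT1L at 0.24 and PSIP1 at -0.19 when the trends were removed. The count of 3 lower was 1 with library totals, by DESeq2 and without IgG library 1 or any 1 antagonist library, and 2 without IgG library 2 or 3.

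Of 20 other tested blood cell transcription factors, 2 were higher and 4 lower with the antagonist. GATA2, a progenitor factor, was higher by 0.53 ± 0.11 and NFE2, a megakaryocyte and erythroid factor, lower at -0.35 ± 0.07, both in all 12 alternatives. NR4A1, an orphan nuclear receptor of monocytes, was higher by 0.35 ± 0.12 and lost its call without antagonist library 1 or 3, and was at 0.20 with the trends removed. The count of 4 lower was 2 without antagonist library 1 or 3 and 1 with library totals, and the count of 2 higher was 1 without either of those libraries, 4 without IgG library 3 and 5 with library totals. With the agonist, BCL11A was lower at -0.46 ± 0.11, NR4A1 higher by 0.32 ± 0.09 and ID2 higher by 0.21 ± 0.07. BCL11A and ID2 lost their calls with the trends removed (-0.23 and 0.08), and ID2 also did by DESeq2 and without IgG library 2.

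**Figure D5:**
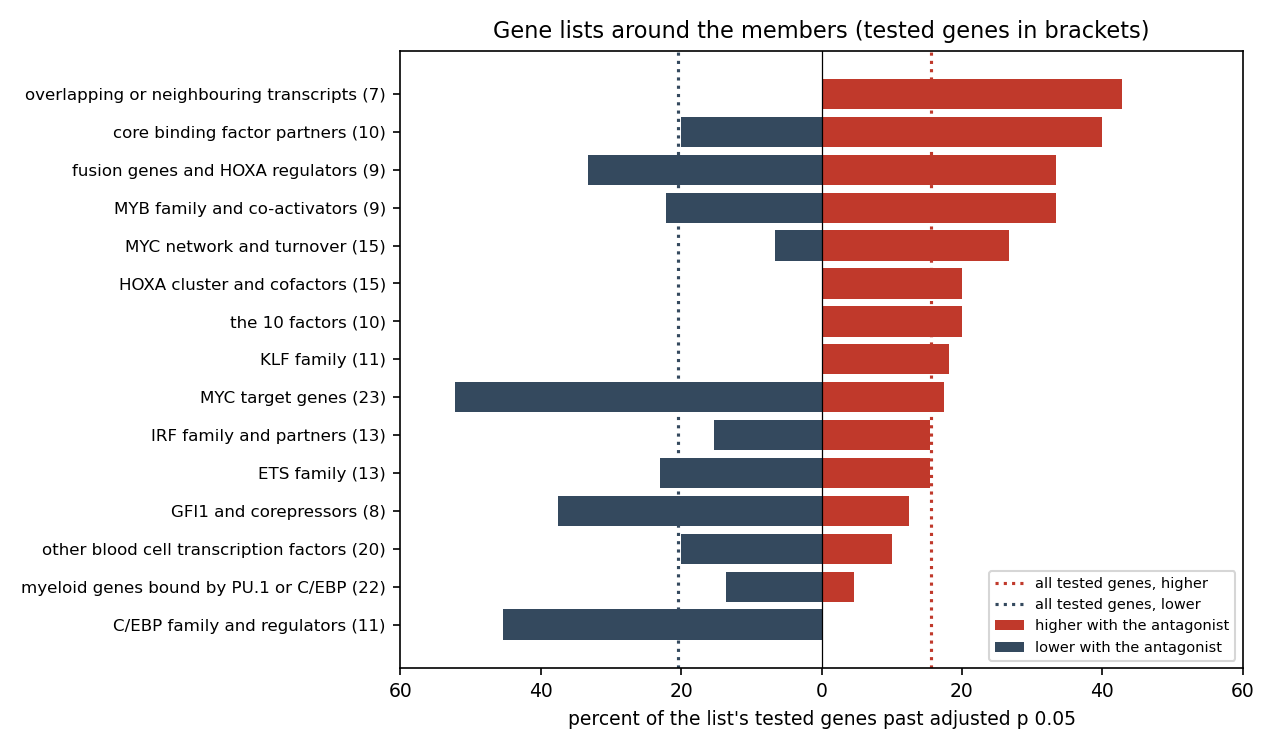
For each gene list, the share of its tested genes past an adjusted p of 0.05 that were higher (red, right) or lower (dark blue, left) with the antagonist, with the number tested in brackets and dotted lines at the shares over all tested genes, 15.6% higher and 20.5% lower. MYC target genes and the C/EBP list reach furthest to the left, and no gene of the KLF list, the HOXA list, the overlapping transcripts or the 10 factors is past the threshold on that side.

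The genes most like RUNX1 over the 6 set 1 libraries, by the Pearson correlation of log2 CPM among genes of at least 5 CPM, were WIPF1 (r = 0.994) and PALLD (r = 0.992). For GFI1 they were TMC8 (r = 0.998) and WIZ (r = 0.998). These correlations are over 6 libraries that all genes share, are the highest of many, and are given as a description.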

How the data were processed

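RNA of U937 cells was sequenced in 12 libraries, 3 in each of 4 groups. The authors deposited whole-number read counts per gene, with no normalization, in 1 table for each antibody and its IgG group. Per the submitters' processing notes, HISAT2, Cufflinks and genome build hg38 were used; versions, counting program, annotation and strand setting: not given in the sources used here. Columns carry group names but no replicate numbers, so library numbers follow the order of columns and pair nothing. Rows without a gene symbol (570 of 28395 in set 1, 0.0678 to 0.105% of counts) were left out.

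Genes were filtered (filterByExpr), scaled by TMM and tested with the robust quasi-likelihood test of edgeR 4.0.16 in R 4.3.3, with Benjamini-Hochberg adjustment at 0.05 over all tested genes of a table. SE is the fold change over the root of F. The difference between antibodies was tested as the set-by-treatment interaction, over 867 shared genes, each set scaled alone. Scripts were tested on simulated counts. Alternatives were library totals, DESeq2 1.42.0, no filter, a stricter filter (1 CPM in 3 libraries and 50 summed counts), no robust step, removal of trends with transcript length and GC (fitted across genes in each library and passed to edgeR as offsets), and leaving out each library. For the difference of effects, removal of these trends was added after the data were seen.

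The 10 factors, the 14 other lists, the motifs and the tests were chosen with earlier results of these data known. Named genes are the 10 factors, up to 4 genes past 0.05 with the largest change from each list, and the 2 genes most like each factor past 0.05 in set 1. Transcript lengths, GC and positions are from GENCODE 29. A few named genes are not reported here.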

Additional observations from a re-analysis of the deposited data

Results flagged for a closer look

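The antagonist and agonist effects on RUNX1 and MYC differed by a test of the difference itself. For RUNX1 the antagonist effect minus the agonist effect was 0.717 on the log2 scale (SE 0.108, adjusted p 6.67e-05 by edgeR's quasi-likelihood test), with RUNX1 higher in 3 of 3 antagonist libraries and lower in 3 of 3 agonist libraries than in every library of their own IgG group. For MYC the difference was 0.524 (SE 0.102, adjusted p 0.00052), with MYC lower in 3 of 3 agonist libraries than in every IgG library of set 2 and overlapping IgG in set 1. The groups did not overlap in 49% of all tested genes of set 1 and in 97.6% of the listed genes of set 2. RUNX1 lost its antagonist call without any 1 antagonist library, and its difference was 0.35 with the length and GC trends removed. The test of the difference called 58.8% of the 867 shared genes. It could be run only on genes listed for the agonist, which appear to have been picked on these same libraries, so its p-values carry that choice and are not independent evidence.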

How the results depend on the processing

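The call and direction of MYC and RUNX1 with the agonist held in all 12 alternatives, and those of their difference of effects in all 15. For the antagonist the count of 2 members higher was 1 without the robust step and 1 with length and GC trends removed, and 0 to 3 over the leave-outs. The count of 0 lower was 1 without a filter and 1 with trends removed, IRF8 in both, and 0 to 1 over the leave-outs. At library totals MYC turned to 0.027 and CEBPA to 0.0099. Over the leave-outs log2 fold changes ran from -0.23 to 0.15 for CEBPA, -0.032 to 0.42 for CEBPB, -0.11 to 0.015 for MYC and -0.011 to 0.19 for SPI1. With trends removed the agonist value of IRF3 turned to -0.020. Over all tested genes the antagonist calls were 2147 higher and 2831 lower with TMM, and 3022 higher and 1597 lower with library totals. Over the leave-outs they ran from 1374 to 2474 higher and from 1769 to 2601 lower. The cause of these changes was not tested.

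No paired analysis was possible because the columns carry no replicate numbers. The planned test of members below the filter was not run, as none was below it. Depth was not limiting for most members, since KLF4, the lowest, had over 100 counts in each set 1 library. The agonist table, whose genes appear to have been picked, limits its scaling and p-values, and the other 8 members were not analysed there.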

Other observations

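The ratio of RUNX1 to MYC counts within a library, which needs no scaling between libraries, was 0.192, 0.199 and 0.195 in antagonist libraries, against 0.168, 0.148 and 0.161 in their IgG libraries, with no overlap. It was 1.06, 1.29 and 1.23 in agonist libraries, against 1.16, 1.08 and 1.08 in theirs, where the groups overlapped. The labels give both IgG groups the same cells and treatment, while the column headers name IFN in set 1 only. The ratios of these 2 groups lie several-fold apart. These ratios were not tested between the sets, and as the 2 tables were made separately the levels of either gene cannot be compared between them.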
